A study of Mus musculus with 4 samples.

Results

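The genes described here are 47 cell cycle genes of the mouse that lie on chromosomes 1 to 5, out of 4099 complete gene rows of the count table analysed. They were taken by symbol, with earlier results of these data known, and all 47 were measured. Chromosomes 1, 2, 3, 4 and 5 carried 11, 14, 9, 10 and 3 of them. They fall into 11 genes of DNA replication, 32 genes of mitosis and 4 other cell cycle genes.

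The cells came from tumours of 4T1, an established BALB/c mammary carcinoma line, grown in BALB/c mice. In the group CON the 4T1 cells were wild-type, and in the group sgMif they were depleted of the cytokine gene Mif. There were 2 samples in each, every sample pooled 3 dissociated tumours, and cells positive for CD45 and negative for propidium iodide were sorted before droplet single-cell RNA sequencing. The labels do not say whether the sgMif cells were 1 clone. In the deposited annotation 45781 barcodes carry 1 of 23 names of cell types, and the barcodes end in 1, 2, 3 or 4. Which sample each of these suffixes stands for is given nowhere in the labels or headers, so CON and sgMif are not compared, and suffix 1 and suffix 2 are given apart as 2 libraries of unknown group.

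Counts of UMIs, each tagging 1 captured molecule, were analysed for 13162 cells of suffix 1 and 3221 cells of suffix 2, with medians of 1224.5 and 1712 UMIs per cell over the genes analysed. The 3221 cells are 26.9% of the 11961 annotated for suffix 2, so that library is covered in part. The other cells of suffix 2 and those of suffixes 3 and 4 were not analysed here. The 2 suffixes shared 12 barcode sequences. A level is the number of UMIs per 10000 counted UMIs, summed over the cells of a name within a suffix. Brackets and ranges are exact 95% intervals that cover counting error only, since there were no replicates and no test was run. A gene is called higher or lower where both sides together held 50 or more UMIs and the interval of the ratio lay beyond 2-fold.

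Among the authors' names are some tied to proliferation. The tag gene deposited with the name Macro_Mgl2 was Birc5 and that of CD8_Tex was Mki67, both genes of dividing cells, so high cell cycle levels in these names are a description and not independent of the naming. The macrophage markers summed to 298 in Macro_Mgl2 and 21.9 in neutrophils of suffix 1, the T cell markers to 38.1 in CD8_Tex and 1.05 in neutrophils, and the B cell markers to 37.6 in B_cell and 0.108 in neutrophils. CD8_Tex also held macrophage markers at 232 in suffix 1 and 112 in suffix 2. The sort was for CD45, but 499 cells of suffix 1 carried the name epithelial, and their 2 measured epithelial markers, Elf3 and Wfdc2, summed to 100.

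Dividing cells switch genes on in 2 main waves. The first, around the start of S phase, makes the helicase, clamp and checkpoint proteins that copy DNA, and is driven by E2F factors. The second, in G2 and mitosis, makes the kinases, kinetochore proteins, spindle motors and ubiquitin ligase parts that separate the chromosomes, and is known to act through short promoter motifs called CHR and CCAAT that are read by DREAM, B-Myb, FoxM1 and NF-Y. Mature neutrophils leave the cycle before they enter tissue, while activated T and B cells, tumour cells and some tumour macrophages divide.

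Promoter sequences of the RefSeq table (build GRCm38.p6) were found for 41 of the 47 genes, each window running from 250 bases before to 50 after the annotated start. Motifs were searched on both strands: TTTGAA or TTCGAA for CHR, CCAAT for the NF-Y box, and TTTCCCGC, TTTCGCGC, TTTGCCGC or TTTGGCGC for E2F. CHR letters stood in 19 of 29 mitotic promoters (65.5%), in 0 of 9 replication promoters, and in 21.7% of all 27025 genes with a window. CHR and CCAAT letters together stood in 17 of the 29 mitotic promoters (58.6%) against 8.61% of all genes. The E2F letters showed the reverse, with 0 of 29 mitotic and 6 of 9 replication promoters (66.7%) against 2.6% of all genes. CCAAT letters stood in both sets, in 20 of 29 and 8 of 9 promoters, against 41.1% of all genes. A match is a description of letters and not of binding.

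The 4 mitotic genes with a single window and with both CHR and CCAAT letters in the last 120 bases before the start are shown first, as chosen after the matches were seen, 5′ to 3′ on the gene's strand, with the letters of any searched motif in capitals. Ube2c lies at chr2:164769809-164769928 and Depdc1a at chr3:159495313-159495432, both on the plus strand. In Ube2c, Depdc1a and Ckap2l the CHR letters read TTCAAA, the reverse strand of TTTGAA, and CCAAT read from the reverse strand is ATTGG. Cdc20 lies at chr4:118437344-118437463 and Ckap2l at chr2:129297213-129297332, both on the minus strand.
Ube2c: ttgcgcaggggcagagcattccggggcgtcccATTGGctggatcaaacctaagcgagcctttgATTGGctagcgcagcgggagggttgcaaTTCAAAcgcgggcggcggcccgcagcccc
Cdc20: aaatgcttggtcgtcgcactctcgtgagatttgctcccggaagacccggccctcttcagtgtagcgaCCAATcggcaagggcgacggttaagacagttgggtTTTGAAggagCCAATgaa
Depdc1a: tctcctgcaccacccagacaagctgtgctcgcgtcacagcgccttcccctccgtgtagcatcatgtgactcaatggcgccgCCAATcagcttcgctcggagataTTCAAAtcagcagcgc
Ckap2l: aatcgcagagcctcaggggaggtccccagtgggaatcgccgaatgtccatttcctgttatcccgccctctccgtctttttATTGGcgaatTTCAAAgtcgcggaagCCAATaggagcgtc
The CHR letters ended 24, 13, 11 and 25 bases before the start in Ube2c, Cdc20, Depdc1a and Ckap2l.

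The 3 replication genes with E2F and CCAAT letters in the same stretch are shown for contrast, and none of the 3 stretches held CHR letters. Mcm6 lies at chr1:128359706-128359825 (minus strand), Orc1 at chr4:108579334-108579453 (plus strand) and Dtl at chr1:191575545-191575664 (minus strand).
Mcm6: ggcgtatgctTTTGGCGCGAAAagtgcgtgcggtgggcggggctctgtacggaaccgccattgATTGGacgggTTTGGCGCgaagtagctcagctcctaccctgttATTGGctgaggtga
Orc1: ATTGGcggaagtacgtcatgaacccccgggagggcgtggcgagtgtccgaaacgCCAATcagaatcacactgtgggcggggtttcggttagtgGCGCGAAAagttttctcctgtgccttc
Dtl: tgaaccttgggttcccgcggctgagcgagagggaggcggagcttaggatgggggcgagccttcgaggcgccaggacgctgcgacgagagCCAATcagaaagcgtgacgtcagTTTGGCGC
In Mcm6 the capitals TTTGGCGCGAAA are 2 overlapping matches, TTTGGCGC and, on the other strand, TTTCGCGC. Starts are those of RefSeq, and the GENCODE gene starts of these 7 genes lay 0 to 41 bases away.

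Summed over the 32 mitotic genes, Macro_Mgl2 stood highest of the names, at 99.1 (97.7 to 100.6) in suffix 1 and 102.6 (99.8 to 105.5) in suffix 2. CD8_Tex followed at 57.1 and 66.3, then epithelial at 49.8 and 36.1, B_cell at 47.6 and 62.2, and pDC at 34.6 and 52.5. Neutrophils were lowest at 3.44 and 3.45. Relative to all other cells of the suffix, the mitotic sum of Macro_Mgl2 was 5.85-fold higher in suffix 1 (log2 ratio 2.55, 2.52 to 2.57) and 4.38-fold higher in suffix 2 (log2, 2.13, from 2.08 to 2.17).

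Per counted UMI, the 11 replication genes gave another order. CD8_Tex was at 31.8 and 35.0 in suffixes 1 and 2, B_cell at 29.6 and 34.6, NK_cell at 25.4 and 28.9, Macro_Mgl2 at 24.9 and 23.9, and neutrophils at 4.05 and 5.15. In Macro_Mgl2 the replication sum was 2.01-fold that of all other cells in suffix 1, and since its log2 interval, 0.96 to 1.05, spanned 2-fold it was not called. It passed 2-fold per cell (log2 ratio 2.73) and without the 5% of cells with the most UMIs (log2 ratio 1.14). It also passed 2-fold at 500 UMIs per cell (log2 ratio 1.22) and without Pcna and Slbp (log2 ratio 1.31). Per cell the order also changed: Macro_Mgl2 held 17.7 and 16.1 replication UMIs per cell, CD8_Tex 13.1 and 10.4, B_cell 2.75 and 6.97, and NK_cell 2.22 and 2.26. Depth differed between these names, with medians of 6227, 3292, 558 and 682 counted UMIs per cell in suffix 1. NK_cell held 129 and 120 replication UMIs in 58 and 53 cells, and its intervals of 21.2 to 30.2 and 24.0 to 34.6 overlapped those of Macro_Mgl2. Fewer dividing cells and less of each transcript per cell cannot be told apart in these sums.

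**Figure D1:**
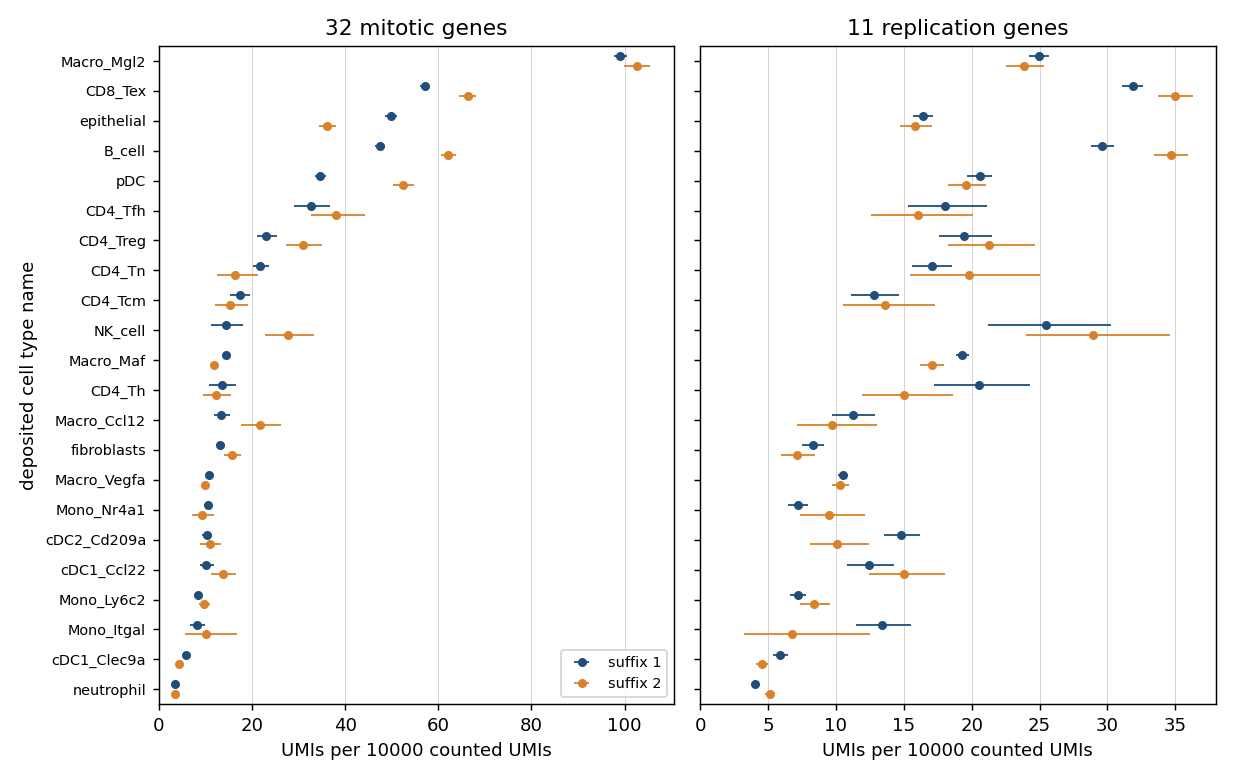
Summed levels of the 32 mitotic genes (left) and the 11 replication genes (right), in UMIs per 10000 counted UMIs, for 22 deposited cell type names. Points are suffix 1 and suffix 2 and lines are exact 95% intervals: Macro_Mgl2 leads the mitotic panel at 99.1 and 102.6, while CD8_Tex leads the replication panel at 31.8 and 35.0.

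Of the 47 genes, 39 were called higher in Macro_Mgl2 than in all other cells of suffix 1 and 0 lower, where 3.9% of the genes tested were called higher and 5.83% lower. They were 30 of 32 mitotic, 6 of 11 replication and 3 of the 4 other genes. In suffix 2, 31 of the 46 genes tested were called higher, with 28 of 31 mitotic and 1 of 11 replication genes, against 2.3% of all genes tested. The median log2 ratio in suffix 1 was 2.87 over the mitotic genes, 1.42 over the replication genes and 0.19 over all genes tested. The genes not called in suffix 1 were Pcna, Mcm6, Dtl, E2f1, Slbp, Hjurp, Cdc25b and Lbr.

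Among the genes of the spindle checkpoint and the anaphase-promoting complex, Ube2c, the ubiquitin-conjugating enzyme of that complex, was at 12.1 in Macro_Mgl2, 5.85 in epithelial, 4.61 in CD8_Tex, 4.55 in pDC, 3.58 in B_cell and 0.128 in neutrophils of suffix 1. In suffix 2 it was at 12.5, 5.09, 6.54, 7.21, 4.99 and 0.179 in the same names. Macro_Mgl2 was highest for Ube2c in both suffixes, and its log2 ratio to other cells was 3.22 (3.14 to 3.29) and 2.59 (2.45 to 2.72). Cdc20, which activates the complex, was at 2.80 and 3.04 in Macro_Mgl2, and in suffix 2 pDC stood above it at 3.40. The checkpoint kinase Bub1 was at 2.37 and 2.38 in Macro_Mgl2 against 1.25 and 0.859 in CD8_Tex. Bub1b, the BubR1 protein of the checkpoint complex, was at 2.81 and 2.58 against 1.53 and 1.52.

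Of the mitotic kinases, Aurka, which builds the spindle poles, was at 1.59 and 1.71 in Macro_Mgl2 and at 0.814 and 0.821 in CD8_Tex, the next name in both suffixes. Melk, a kinase of dividing cells, showed log2 ratios of 3.12 and 2.86 in Macro_Mgl2. Nek2, which splits the centrosomes, was less separated: Macro_Mgl2 held 0.704 and 0.813 and B_cell 0.598 and 0.934, so that B_cell was highest in suffix 2. Plk4, the kinase of centriole duplication, was the broadest of the 4, with 1.83 in Macro_Mgl2, 1.58 in NK_cell and 1.40 in CD8_Tex of suffix 1, and 1.90, 1.45 and 1.94 in suffix 2.

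The kinetochore and centromere genes split in the same manner. Cenpf and Cenpe, of the outer kinetochore, were at 4.58 and 4.30 in Macro_Mgl2 of suffix 1, against 2.64 and 2.32 in CD8_Tex, 0.0454 and 0.0259 in neutrophils and 0 UMIs each in the 58 NK_cell cells. In suffix 2 the 53 NK_cell cells held 2 UMIs of Cenpf and 3 of Cenpe. Cdca8, the borealin subunit of the chromosomal passenger complex, was at 7.04 and 7.42 in Macro_Mgl2 of the 2 suffixes and 3.34 and 4.02 in CD8_Tex. Nuf2, of the microtubule-binding Ndc80 complex, was at 1.11 and 1.5 in Macro_Mgl2. Oip5, which helps to load the centromeric histone, was at 0.314 in Macro_Mgl2 of suffix 1, and in suffix 2 pDC stood above it at 0.412 against 0.208. Cenpa, that histone itself, was less restricted. It was at 10.8 in Macro_Mgl2, 7.52 in epithelial, 6.90 in CD4_Tfh and 3.19 in Macro_Maf of suffix 1, and at 12.0, 5.27, 8.23 and 2.59 in suffix 2. Its chaperone Hjurp was at 2.26 in Macro_Mgl2, 2.45 in epithelial and 0.807 in neutrophils, and its log2 ratio in Macro_Mgl2 of 1.14 (0.98 to 1.29) was not called.

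All 9 genes of the spindle and centriole were called in suffix 1. Nusap1, which bundles spindle microtubules, was at 5.41 in Macro_Mgl2, 3.05 in CD8_Tex, 2.24 in B_cell, 0.173 in Macro_Maf and 0.0398 in neutrophils of suffix 1, and at 5.29, 4.10, 3.44, 0.158 and 0.0617 in suffix 2. Tpx2, the activator of Aurora A, was at 5.66 and 5.67 in Macro_Mgl2, for log2 ratios of 3.17 and 2.56. The kinesin Kif14 showed log2 ratios of 3.31 and 2.33 over the suffixes, and the kinesin Kif2c 2.73 and 2.51. Tacc3, Aspm, Ckap2l and Stil, also of the spindle and centrioles, were highest in Macro_Mgl2 in both suffixes, at 3.29, 1.11, 2.97 and 0.881 in suffix 1. Psrc1 rested on 36 UMIs in Macro_Mgl2, and Nusap1 overlaps Oip5 on the opposite strand.

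Among the cytokinesis genes, Iqgap3 and Arhgef39 were highest in Macro_Mgl2 in both suffixes, at 1.497 and 1.75 for Iqgap3 and 0.429 and 0.458 for Arhgef39. Ect2, the exchange factor that sets the cleavage plane, was at 1.28 in epithelial and 1.03 in Macro_Mgl2 of suffix 1, and at 0.622 and 1.54 in suffix 2, so the order of these names changed between suffixes. Ccna2, cyclin A2, was at 4.51 and 4.81 in Macro_Mgl2 and 2.42 and 3.01 in CD8_Tex. Cdc25b, a phosphatase that activates cyclin-dependent kinases, was highest in CD4_Treg, at 1.53 and 1.57 against 0.914 and 0.854 in Macro_Mgl2. Depdc1a, whose promoter is printed above, was highest in Macro_Mgl2, at 0.930 and 1.04. The condensin gene Smc4 departed from this order. It was at 20.4 (17.5 to 23.6) in CD4_Tfh and 11.02 in Macro_Mgl2 of suffix 1, and at 18.2 (14.5 to 22.5) and 9.54 in suffix 2. Smc4 gave 177 of the 284 mitotic UMIs of CD4_Tfh in suffix 1. Ncaph, the other condensin gene measured here, was at 0.115 in CD4_Tfh and 1.36 in Macro_Mgl2.

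Over names with 50 or more cells, Macro_Mgl2 was the highest name for 28 of the 32 mitotic genes in suffix 1 and for 24 in suffix 2, 22 of them in both. For the 11 replication genes it was highest for 2 in each suffix. The highest name was the same in both suffixes for 23 of 32 mitotic and 3 of 11 replication genes, with 22 names compared in suffix 1 and 15 in suffix 2.

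**Figure D2:**
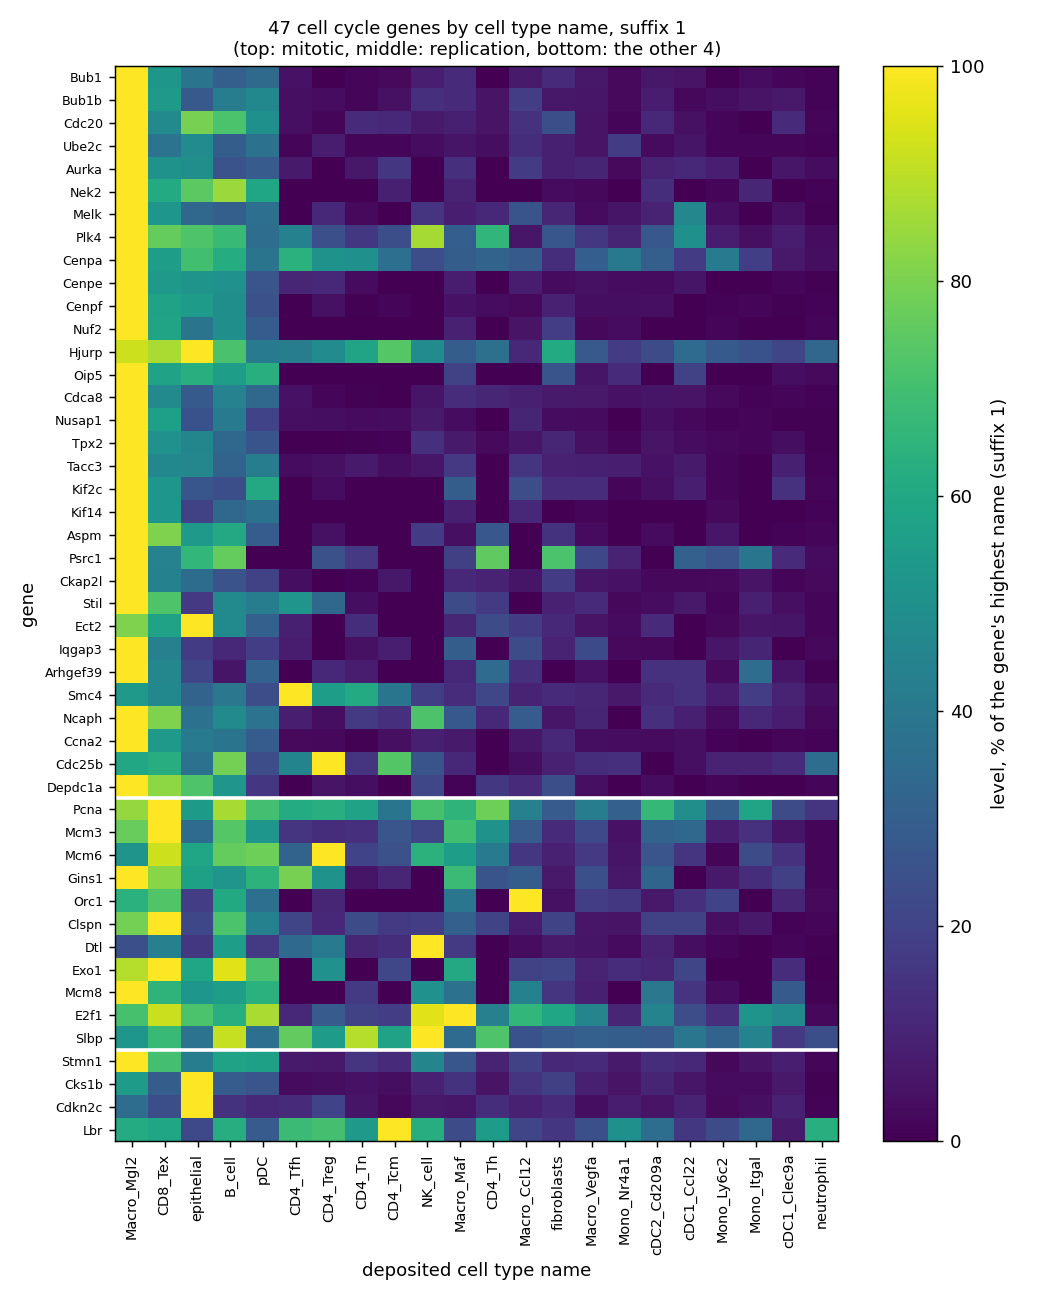
Level of each of the 47 genes (rows) in 22 deposited cell type names (columns) of suffix 1, as a percentage of the gene's highest name shown. The upper block of mitotic genes is bright at Macro_Mgl2 and mostly dark from CD4_Tfh rightward, with Cenpa, Hjurp, Plk4, Psrc1, Smc4 and Cdc25b among the exceptions, while the replication block has its maxima in several names.

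Of the replication genes, Pcna, the sliding clamp of DNA polymerases, was at 13.1 in CD8_Tex, 11.4 in B_cell, 11.03 in Macro_Mgl2, 8.53 in Macro_Maf and 1.95 in neutrophils of suffix 1. In suffix 2 these levels were 15.5, 13.1, 11.6, 8.17 and 2.87. CD8_Tex was highest for Pcna in both suffixes. The helicase gene Mcm3 was at 3.79 and 3.35 in CD8_Tex, 2.79 and 3.60 in B_cell, 2.91 and 2.52 in Macro_Mgl2, and 2.64 and 1.91 in Macro_Maf. Mcm6, of the same helicase, was at 3.99 in CD4_Treg, 3.68 in CD8_Tex, 3.11 in pDC and 2.06 in Macro_Mgl2 of suffix 1. Gins1, of the same helicase complex, was at 0.578 and 0.417 in Macro_Mgl2 and 0.476 and 0.417 in CD8_Tex, and Orc1, of the origin complex, at 0.292 and 0.271 against 0.333 and 0.316. In suffix 2 the Mcm6 level of Macro_Mgl2, 1.48, lay within counting error of that in all other cells, 1.44.

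The checkpoint and repair genes of replication included Clspn, claspin, the adaptor of the ATR and Chk1 checkpoint. It was at 2.18 and 1.67 in CD8_Tex, 1.57 and 1.99 in B_cell and 1.73 and 1.44 in Macro_Mgl2, and it was the 1 replication gene called in Macro_Mgl2 of suffix 2. Dtl, the substrate receptor that has Cdt1 destroyed, was at 3.35 in NK_cell, 1.89 in B_cell and 0.820 in Macro_Mgl2 of suffix 1, and at 2.89, 2.53 and 0.708 in suffix 2. The NK_cell level of Dtl in suffix 2 rested on 12 UMIs, with an interval of 1.49 to 5.05 that covered the B_cell level. Exo1, a nuclease of DNA repair, was at 0.259 and 0.271 in Macro_Mgl2 and 0.291 and 0.341 in CD8_Tex, and Mcm8, a helicase of recombination, at 0.391 and 0.208 against 0.254 and 0.252. E2f1, a transcription factor of the first wave, was at 1.03 in Macro_Maf of both suffixes, with 0.732 and 1.10 in Macro_Mgl2. Slbp, which binds histone mRNA, was spread over lymphocytes at 7.89 in NK_cell, 7.20 in B_cell and 5.98 in CD4_Tfh against 4.13 in Macro_Mgl2 of suffix 1.

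Set against mitotic UMIs, replication UMIs were scarcest in Macro_Mgl2, a ratio that does not depend on the denominator of the levels. Macro_Mgl2 held 0.252 replication UMIs per mitotic UMI in suffix 1 (0.244 to 0.260) and 0.233 in suffix 2 (0.218 to 0.248). Epithelial cells held 0.329 and 0.439, CD8_Tex 0.558 and 0.528, B_cell 0.623 and 0.557, and pDC 0.595 and 0.374. Macro_Maf held 1.35 and 1.44, and neutrophils 1.18 and 1.49. Between CD8_Tex and Macro_Mgl2 the log2 odds ratio of replication to mitotic UMIs was 1.15 (1.08 to 1.21) in suffix 1 and 1.18 (1.07 to 1.30) in suffix 2. In neutrophils of suffix 1, Pcna at 1.95 and Slbp at 1.91 made up most of the replication sum of 4.05.

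**Figure D3:**
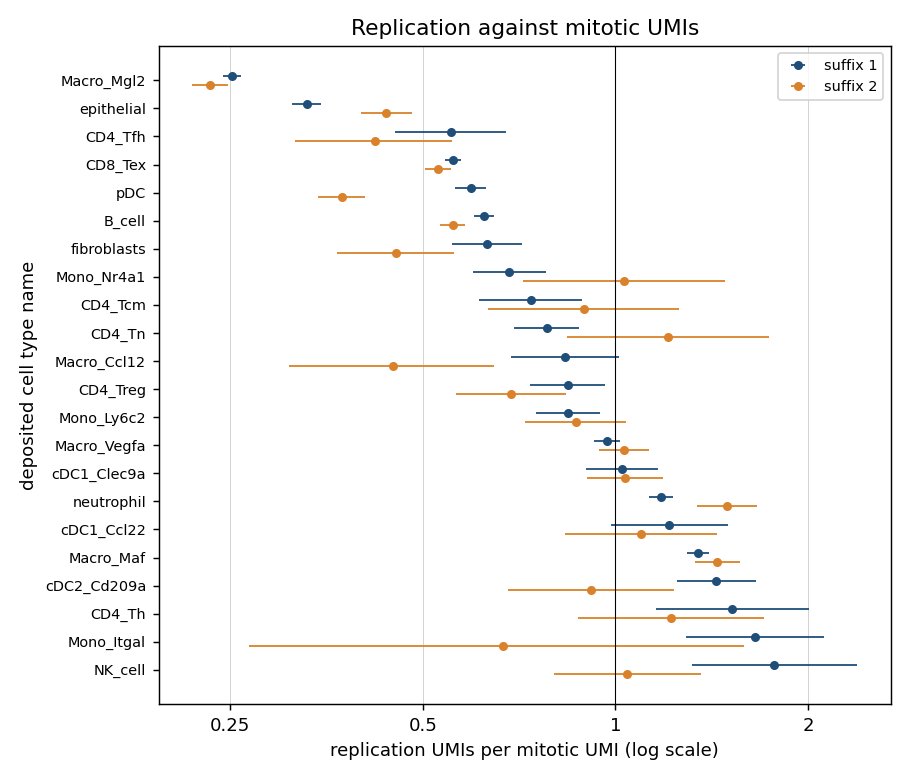
Replication UMIs per mitotic UMI on a log axis for 22 deposited cell type names, ordered by suffix 1, with exact 95% intervals for suffixes 1 and 2. Macro_Mgl2 lies lowest at 0.252 and 0.233, and Macro_Maf lies above 1 in both suffixes.

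The 4 other genes each had their own order. Stmn1, stathmin, which destabilises microtubules, was at 23.9 in Macro_Mgl2, 16.8 in CD8_Tex, 13.8 in B_cell and 2.91 in Macro_Vegfa of suffix 1. In suffix 2 it was at 21.3, 21.0, 21.8 and 1.81, so the first 3 names stood together. Cks1b, a cyclin-dependent kinase subunit, was highest in epithelial, at 19.6 and 16.4, against 10.8 and 10.5 in Macro_Mgl2. Cdkn2c, the inhibitor p18 of Cdk4 and Cdk6, was also highest in epithelial, at 5.68 and 7.11 against 2.03 and 2.08 in Macro_Mgl2, log2 ratios of 1.49 and 1.77 that were called in both suffixes. Lbr, the lamin B receptor of the nuclear envelope, was highest in CD4_Tcm of suffix 1 (7.60) and NK_cell of suffix 2 (7.96). It was at 4.76 and 3.10 in neutrophils and 4.69 and 3.98 in Macro_Mgl2.

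Levels in the CD4 T cell names separated the 47 genes into restricted and broad ones. Pooled over the 5 CD4 names, the level was under 10% of that in Macro_Mgl2 for 24 of 32 mitotic genes in suffix 1 and 21 in suffix 2, with medians of 4.01% and 7.15%. Replication genes had a median of 27.5% in both suffixes, with 2 of 11 under 10% in each. Slbp stood at 137%, Lbr at 111%, Smc4 at 104%, Mcm6 at 84.7%, Dtl at 83.4%, Cdc25b at 82.9%, Pcna at 68.1%, Hjurp at 60.0% and Cenpa at 47.7% in suffix 1. In suffix 2 Dtl stood first at 163%, on 31 CD4 UMIs, followed by Lbr at 138%, Mcm6 at 121%, Slbp at 113% and Smc4 at 104%. The CHR letters were found in the promoters of 15 of the 22 mitotic genes under 10% with a window and in 4 of the 7 others, Psrc1, Cenpa, Hjurp and Cdc25b.

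**Figure D4:**
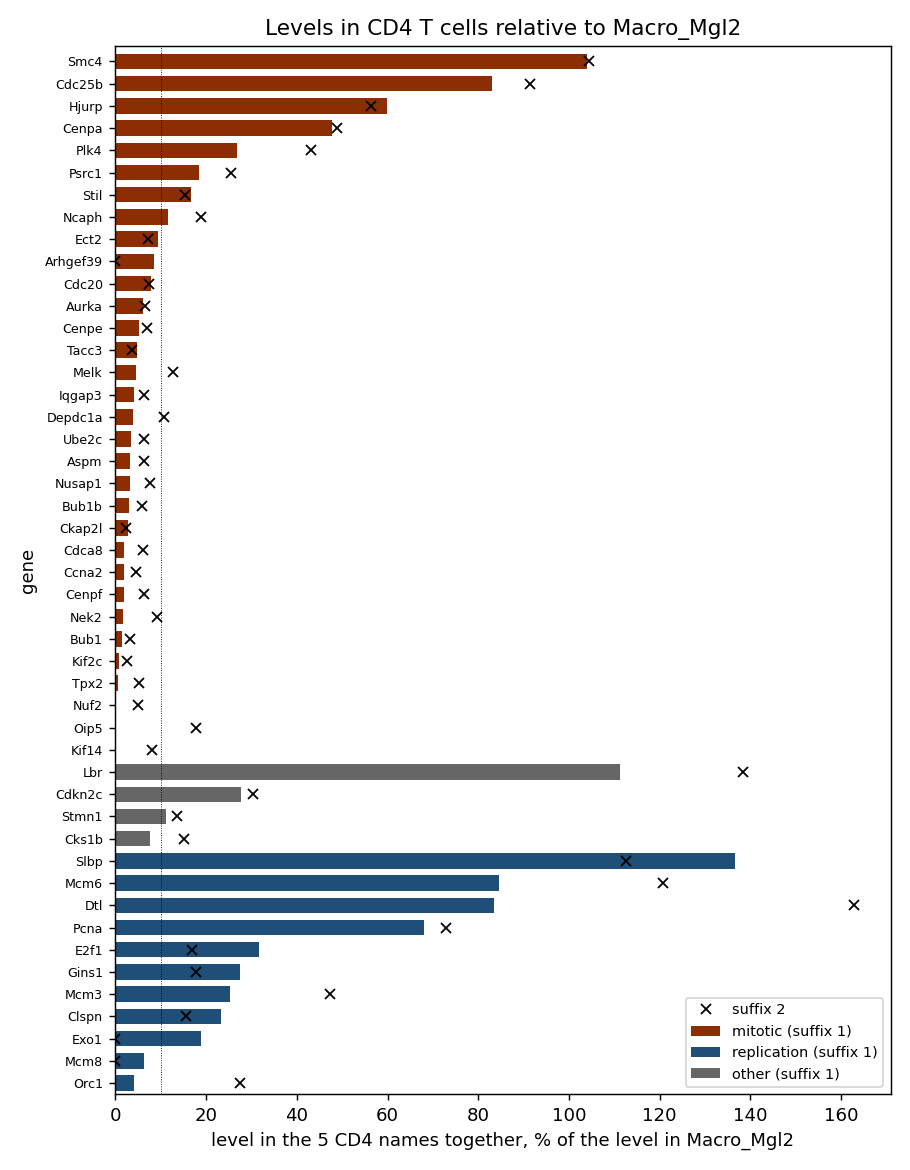
Level of each gene in the 5 CD4 names together as a percentage of its level in Macro_Mgl2, with bars for suffix 1, crosses for suffix 2 and a dotted line at 10%. Most mitotic genes lie under the line, and Slbp, Lbr and Smc4 lie above 100% in both suffixes.

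Within the macrophage names, the members called higher in Macro_Mgl2 than in Macro_Maf were mostly mitotic genes. Of 46 genes tested, 36 were called higher in suffix 1, against 3.25% of all genes, and they were 31 of 31 mitotic, 1 of 11 replication and all 4 other genes. Nusap1 was at 5.41 against 0.173 (log2 ratio 4.97, 4.56 to 5.40) and Ube2c at 12.1 against 0.701 (4.11, 3.90 to 4.32). Mcm3 was at 2.91 against 2.64 (0.14, -0.02 to 0.30), and Clspn, at 1.73 against 0.668, was the replication gene called. In suffix 2, 30 of 37 genes tested were called higher, 25 of 25 mitotic and 1 of 8 replication, against 3.06% of all genes. Against Macro_Vegfa, 44 of 47 genes were called higher in suffix 1, 32 of 32 mitotic and 8 of 11 replication, against 4.58% of all genes. In suffix 2, 32 of 36 genes tested were called higher than in Macro_Vegfa, against 3.7% of all genes. In both comparisons the limit of 50 UMIs could be reached through Macro_Mgl2 alone. Depdc1a of suffix 2, for example, held 50 UMIs there against 1 in Macro_Maf. The shares of mitotic genes called are therefore a description.

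Macro_Maf itself stood above Macro_Vegfa in replication genes. Of 38 genes tested, 7 were called higher in suffix 1, against 0.845% of all genes, and they were Mcm3, Mcm6, Clspn, Dtl, Exo1, Mcm8 and Stmn1. The UMI limit, set on both sides together, could be reached through Macro_Maf alone. Clspn, Exo1 and Mcm8 held 43, 9 and 11 UMIs in Macro_Vegfa, under the limit without Macro_Maf, so their calls are a description. Mcm3, Mcm6, Dtl and Stmn1 held 273, 216, 63 and 950 there, above the limit on that side alone. None of the 23 mitotic genes tested was called. In suffix 2 the genes called were Mcm3, Mcm6 and Stmn1, of 17 tested, against 0.608%. They held 66, 34 and 176 UMIs in Macro_Vegfa of suffix 2, so Mcm6 met the limit there only with Macro_Maf. The log2 ratio of Mcm6 was 1.75 and 2.58. Against all other cells, Macro_Maf of suffix 1 was called higher for Mcm3 and E2f1 and lower for 10 mitotic genes, where 5.55% of genes were called higher and 9.59% lower. In suffix 2 it was called lower for 14 of 46 genes, against 8.58% of all genes.

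CD8_Tex, named by the authors for T cells, had both lists raised. Of the 47 genes, 39 were called higher than in all other cells of suffix 1, with 28 of 32 mitotic and 10 of 11 replication genes, against 6.97% of genes tested. In suffix 2 the count was 30 of 46, against 6.32%. Set directly against Macro_Mgl2, 0 of 47 genes were called higher in CD8_Tex of suffix 1, where 4.22% of all genes were. Ube2c was called lower, where 0.56% of all genes were. In suffix 2, Bub1 and Iqgap3 were called lower of 40 tested, against 1.69% of all genes.

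B_cell had 24 of 47 genes called higher in suffix 1, where 16.1% of all genes were, and 28 of 46 in suffix 2, where 7.06% were. Per cell in place of per counted UMI, the B_cell log2 ratios to all other cells turned from 1.22 to -0.19 for the mitotic and from 1.28 to -0.12 for the replication sum, B cells having a median of 558 UMIs. Set against CD8_Tex, B_cell of suffix 1 had 1 of 45 genes tested called lower, Iqgap3, where 13.7% of all genes were.

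Epithelial had 17 of 47 called in suffix 1 against 16.9% of all genes, 15 of them mitotic and 0 replication, and in suffix 2 Cks1b and Cdkn2c of 46 tested against 8.75%. Set against Macro_Mgl2, epithelial cells of suffix 1 had Cdkn2c called higher, where 12.6% of genes were, and 16 genes lower, where 12.7% were. Stil at 0.148 against 0.881 and Iqgap3 at 0.263 against 1.497 were among the 16. The pDC name had 5 of 47 in suffix 1 against 5.98%, namely Mcm6, Bub1b, Ube2c, Kif2c and Stmn1, and 9 of 46 in suffix 2 against 1.78%. Neutrophils had 43 of 47 called lower in suffix 1 and 42 of 46 in suffix 2, where 73.5% and 66.7% of all genes were. The 4 not called in suffix 1 were Slbp, Hjurp, Cdc25b and Lbr.

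In the other lymphocytes the share of the 47 genes called higher in suffix 1 did not exceed that of all genes. For CD4_Treg it lay near that share, and these small counts are a description. CD4_Treg of suffix 1 had 4 of 47 genes called higher, where 9.48% of genes were: Mcm6 at 3.99, Dtl at 1.38, Smc4 at 11.3 and Cdc25b at 1.53. It had 8 called lower, where 5.86% were, among them Cdc20 at 0.0493 and Ccna2 at 0.0986. In suffix 2, Smc4 and Lbr were called higher in CD4_Treg, where 5.47% of genes were. Smc4 was the 1 gene called higher in CD4_Tfh of either suffix, where 7.46% and 3.98% of genes were. CD4_Tn of suffix 1 had Slbp and Smc4 called higher, where 10.0% of genes were, and 12 genes lower, where 9.68% were. NK_cell had Dtl called higher in suffix 1, where 4.95% of genes were, and Dtl and Lbr in suffix 2, where 4.21% were.

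Low levels marked several myeloid names. Macro_Vegfa had 21 of 47 genes called lower in suffix 1, where 8.39% of genes were, and 30 of 46 in suffix 2, where 9.36% were. Among them was Nek2, at 0.0153 and 0.0308. The monocyte name Mono_Ly6c2 had 28 of 47 and 18 of 46 called lower, where 6.15% and 4.99% of genes were, Mcm6 by log2 ratios of -4.56 and -3.01. The dendritic cell name cDC1_Clec9a had 21 of 47 and 40 of 46 called lower, where 10.7% and 19.0% of genes were. Cenpf showed log2 ratios of -5.12 and -6.88 there.

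Counted by cells, and with each cell thinned to 500 UMIs so that depth was equal, 81.6% of Macro_Mgl2 cells in suffix 1 held UMIs of 2 or more mitotic genes (Clopper-Pearson 95% interval, 76.3% to 86.1%, of 255 cells). In suffix 2 the share was 93.0% of 71 cells. It was 33.9% and 45.6% in CD8_Tex, 28.6% and 27.4% in epithelial, 27.5% and 28.9% in pDC, 19.7% and 33.9% in B_cell and 11.9% and 10.5% in Macro_Maf. CD4_Treg held 22.7% and 28.4%, CD4_Tfh 19.8% and 35.1%, CD4_Th 16.7% and 11.3%, CD4_Tcm 15.9% and 10.2% and CD4_Tn 15.6% and 8.11%. Broad genes such as Smc4 and Cenpa count toward this mark. Without thinning, 0 of 116 CD4_Tfh and 6 of 220 CD4_Treg cells of suffix 1 held UMIs of 5 or more mitotic genes. In suffix 2 they were 4 of 42 and 5 of 82. Neutrophils, in which division is not expected and which serve here as a reference, showed 1.29% and 2.43%. Whether these UMIs came from free RNA was not tested. Before thinning their median was 1120 UMIs in suffix 1, against 6227 in Macro_Mgl2. Without thinning the Macro_Mgl2 share was 100% and the neutrophil share 9.79% in suffix 1. Thinning left out 673 of 1785 B_cell cells and 1 of 256 Macro_Mgl2 cells. Replication genes were counted without Pcna and Slbp, so that count rests on 9 genes and the mitotic one on 32. For 2 or more of these 9 genes the shares were 10.2% in Macro_Mgl2, 11.6% in CD8_Tex, 4.68% in B_cell and 0.0390% in neutrophils of suffix 1.

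**Figure D5:**
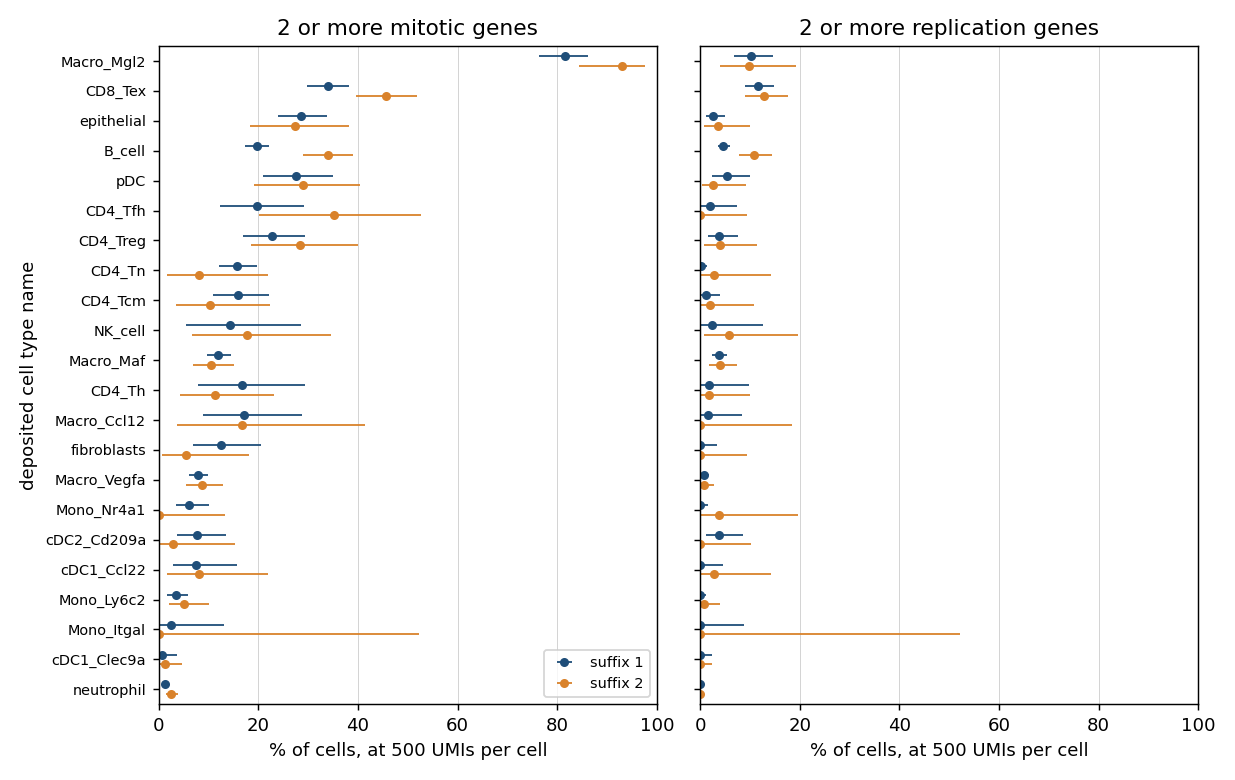
Percentage of cells with UMIs of 2 or more mitotic genes (left) and 2 or more replication genes (right) after thinning to 500 UMIs. The replication genes are the 9 other than Pcna and Slbp. The 22 deposited cell type names are shown with exact 95% intervals for suffixes 1 and 2. Macro_Mgl2 stands apart on the left at 81.6% and 93.0%, while on the right its 10.2% lies beside the 11.6% of CD8_Tex.

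In CD8_Tex, pDC, epithelial, Macro_Maf and B_cell, most mitotic UMIs lay in a minority of cells. That minority was picked for mitotic UMIs, so its share of them is a description. Cells with UMIs of 5 or more mitotic genes, a limit set after the values were seen and without thinning, were 254 of 256 in Macro_Mgl2, 208 of 527 in CD8_Tex, 76 of 169 in pDC, 120 of 499 in epithelial, 174 of 737 in Macro_Maf, 138 of 1785 in B_cell and 16 of 5712 in neutrophils of suffix 1. The 7.73% of B cells in this class held 79.4% of the mitotic and 64.3% of the replication UMIs of B_cell, and 31.3% of its counted UMIs. In CD8_Tex the class held 92.9% of the mitotic and 83.1% of the replication UMIs, beside 65.8% of the counted UMIs. The 16 neutrophils held 11.2% of the mitotic and 1.02% of the counted UMIs of neutrophils. These cells were deeper, with medians of 3371 against 539 UMIs in B_cell and 5767.5 against 1496 in CD8_Tex.

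Within these cells the replication UMIs per mitotic UMI were 0.504 in B_cell, 0.499 in CD8_Tex, 0.499 in pDC, 0.251 in epithelial, 0.252 in Macro_Mgl2 and 1.34 in Macro_Maf of suffix 1. In suffix 2 they were 0.496, 0.450, 0.275, 0.336, 0.232 and 1.28. The cells were picked for mitotic UMIs, so these ratios are a description. In B_cell the class had B cell markers at 16.6 against 47.2 in the other B cells. In CD8_Tex it had neutrophil markers at 463 against 88.1, macrophage markers at 222 against 250 and T cell markers at 40.5 against 33.5. Macro_Mgl2 held neutrophil markers at 1291 in suffix 1 and 810 in suffix 2 within the class. No doublet caller was run, and the part of doublets and free RNA in these values was not tested.

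Cells were also sorted by whether replication and mitotic UMIs met in them. With 3 or more of the 9 replication genes other than Pcna and Slbp as the second mark, 140 Macro_Mgl2 cells of suffix 1 carried both marks, 114 the mitotic mark alone and 0 the replication mark alone. The numbers were 167, 41 and 33 in CD8_Tex, 98, 40 and 8 in B_cell, 33, 87 and 6 in epithelial and 107, 67 and 47 in Macro_Maf. In Macro_Mgl2 of suffix 2 they were 40, 30 and 0. Since 254 of 256 and 70 of 71 Macro_Mgl2 cells held the mitotic mark, the count of 0 with the replication mark alone had little room to differ. Depth moved with the classes: median UMIs were 7071 in Macro_Mgl2 cells with both marks and 5461 in those with the mitotic mark alone, and its part was not tested.

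Further genes of the pathway were counted against all other cells in the same way, where 3.9% and 2.3% of all genes were called higher in Macro_Mgl2 of suffixes 1 and 2, and 6.97% and 6.32% in CD8_Tex. Of 24 other replication genes measured, 13 were called higher in Macro_Mgl2 and 17 in CD8_Tex of suffix 1, and 4 and 12 in suffix 2. Of 18 other mitotic genes measured, 11 and 12 were called in suffix 1 and 9 and 7 in suffix 2. Of 11 genes of G1 control and cycle exit, 3 were called in Macro_Mgl2 of suffix 1: Rbl1, the pocket protein p107, at a log2 ratio of 1.88, Mybl2, which encodes B-Myb, at 1.90, and Lin9, of the DREAM and MuvB complex, at 1.64. In suffix 2 the count was 2, Rbl1 at 1.45 and Mybl2 at 1.59, and Lin9 at 1.08 (0.51 to 1.61) was not called. CD8_Tex had 5 of the 11 called in suffix 1 and 4 in suffix 2, among them Rbl1, Cdk6 and Cdkn2a in both. The kinetochore gene Spc25 was at 1.91 in Macro_Mgl2 and 0.938 in CD8_Tex of suffix 1, and Knl1 at 2.61 and 1.48. The nucleotide enzyme Dut was called in CD8_Tex at 10.7 and 15.0 in suffixes 1 and 2. Cdkn2a, which encodes the inhibitor p16 and the p53 activator Arf, was at 0.527 in CD8_Tex against 0.0573 in all other cells of suffix 1, and at 0.985 against 0.122 in suffix 2.

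Outside the members, the gene most like the summed mitotic level over 22 names of suffix 1 was Sapcd2 (Pearson r = 0.86 across names of log2 levels plus 0.1), followed by Ube2t (0.85). The genes most like the summed replication level were Usp1 (0.92) and Rpa2 (0.91), a subunit of the single-strand binding protein. The names share library and scaling, so these are descriptions.

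Between the suffixes, Macro_Mgl2 was the most alike in mitotic level of the names described here other than neutrophils, with a log2 difference (suffix 2 minus suffix 1) of 0.05 (0.0047 to 0.096). CD8_Tex differed by 0.22, B_cell by 0.39, pDC by 0.60, epithelial by -0.46 and Macro_Maf by -0.28, all beyond counting error, and Macro_Vegfa by -0.11 (-0.22 to -0.01). NK_cell differed by 0.95 (0.51 to 1.39) on 73 and 115 UMIs. Which sample or group either suffix held is not known, so these differences are between 2 libraries and not between CON and sgMif.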

How the data were processed

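Per the labels' protocols, CD45-positive, propidium iodide-negative cells of dissociated 4T1 tumours went through 10x Genomics library preparation. The submitters' processing notes name Cell Ranger, Seurat and GRCm38 (mm10). What each did, its version, the filters and the strand of counting were not given in the sources used here. Whole-number UMI counts per gene and cell were deposited by the authors, with a list of cell type names. An incomplete gene row was left out. Coordinates come from GENCODE on GRCm38.

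For each name and suffix UMIs were added up, then scaled per 10000 counted. Intervals are exact Poisson for levels, conditional binomial for ratios, conditional for the odds ratio and Clopper-Pearson for shares. No suffix maps to a sample, so the planned group test was not run. All 47 genes were described, and other genes were named by correlation over names (8 per list) or by a call on fixed lists, from which the text takes some. The members, gene lists and classes of cells were chosen with earlier results of these data known. Ratios were tested on simulated Poisson counts, which hold no added spread between cells. Interval coverage first fell short for genes raised by 1 of the set folds in CD8_Tex. It was then judged pooled over the changed and over the unchanged genes, a choice made after this was seen. Overlapping coding genes affect 9 members: Oip5, Nusap1, Cdc20, Ube2c, Cdca8, Tacc3, Ccna2, Cdc25b and Lbr. Genes named as copies of Pcna and Stmn1 are annotated, so their counts are uncertain to that extent. Without a stated strand, such reads cannot be told apart. The results of 1 cell type name are not reported here. Alternatives covered suffix, denominator, cells compared, depth, members and minimum counts. Computations ran in Python 3.11.15 (pandas 2.3.3, scipy 1.17.1, numpy 2.4.6), with matplotlib 3.10.9 for figures.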

Additional observations from a re-analysis of the deposited data

How the results depend on the processing

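No paired analysis was possible because no barcode suffix is tied to a sample, and for the same reason no replicate could be left out. The count of 39 genes called higher in Macro_Mgl2 ranged from 31 to 47, and the mitotic log2 ratio of 2.55 from 1.96 to 4.27. The log2 odds ratio between CD8_Tex and Macro_Mgl2, 1.15, ranged from 0.99 to 1.32. Each stayed on the same side of its limit under every alternative run. The replication log2 ratio of Macro_Mgl2, 1.01 and not called, became called per cell (2.73), without the 5% of cells with the most UMIs (1.14), at 500 UMIs per cell (1.22) and, as chosen after seeing the data, without Pcna and Slbp (1.31). The cause was not tested. The share of Macro_Mgl2 cells with 2 or more mitotic genes, 81.6%, was 93.0% in suffix 2, 72.7% at 300 UMIs, 96.0% at 1000 UMIs and 100% without thinning, and 95.7% and 67.1% with limits of 1 and 3 genes.

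Per cell, the called B_cell ratios turned to -0.19 (mitotic) and -0.12 (replication). Of 42 list ratios of the other names, 10 per cell, 5 after S100a8 and S100a9 were taken out of the counted total, and 3 in suffix 2 changed sign where the value was not called to begin with. Whether such sign changes count as reversals was settled after they were seen. Without those 2 genes the B_cell ratios (0.82 and 0.89) and the epithelial mitotic ratio (0.88) fell short of 2-fold, as did the epithelial one in suffix 2 (0.40). Depth limits genes with few UMIs, such as Psrc1 and Oip5.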
